A study of Mus musculus with 9 samples.

Results

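Cytosolic ribosomal protein genes were followed in mouse lung after silica, with and without atractylenolide III (ATL-III). Members were taken by symbol (Rps or Rpl followed by a number, with an optional letter or copy suffix, and Rpsa, Rplp0, Rplp1 and Rplp2) and had to reach 1 FPKM, the count divided by exon length and library total, in at least 3 of 9 libraries. Of 89 matching symbols, 84 passed, out of 15459 genes of any kind that passed the same filter and 55359 in the table. They comprise 31 small-subunit genes, 43 large-subunit genes, 3 stalk genes and 7 genes named as copies of another member (Rps27l, Rpl22l1, Rpl7l1, Rps4l, Rpl6l, Rps3a2 and Rps3a3).

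The mice were male C57BL/6J, 6 to 8 weeks old, in 3 groups of 20. The Control group received saline into the trachea, the Silica group received 5 mg of silica in saline by the same route, and the Silica + ATL-III group received that silica plus ATL-III at 30 mg/kg/d by intraperitoneal injection. Whole lung was taken at day 28 and gave 3 poly(A) libraries per group. The labels name no group given ATL-III without silica and no injected vehicle control, so ATL-III and the injection itself cannot be told apart. They do not say whether a library is 1 mouse or a pool, and where libraries are not separate animals the p-values measure technical spread only.

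The cytosolic ribosome joins a small subunit, which holds and decodes the mRNA, to a large subunit, which forms the peptide bond. Each subunit is an RNA core with proteins present in about equal number, and surplus free ribosomal proteins are degraded. Ribosomal protein mRNAs of mammals start with a run of pyrimidines, the 5′-terminal oligopyrimidine tract, through which the mTOR kinase and the RNA-binding protein Larp1 control their translation. An mRNA level therefore does not give the rate at which the protein is made. In lung, secretory epithelial cells and activated leukocytes are known to carry many ribosomes. Because whole tissue was sequenced, a higher level per cell and more cells of a type rich in the mRNA cannot be told apart.

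The annotated starts of some of the members called in the comparisons below are shown because the pyrimidine tract lies there. Each line gives 10 bases before the start and 20 from it, 5′ to 3′ on the gene's strand, from RefSeq on GRCm38.p6. Capitals mark any of 4 pyrimidine words that were searched and that can overlap: the first word is CTTTCC, the next word is CTTTTC, the next is CTCTTT, and the last one searched is TCTTTC.
Rpl7a, chr2:26910797-26910826, plus strand: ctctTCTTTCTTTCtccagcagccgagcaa
Rps9, chr7:3704031-3704060, plus strand: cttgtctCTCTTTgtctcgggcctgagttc
Rpl18, chr7:45718061-45718090, plus strand: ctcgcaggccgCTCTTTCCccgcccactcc
Rpl15, chr14:18270967-18270996, minus strand: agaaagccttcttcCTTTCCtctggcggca
Rplp0, chr5:115559457-115559486, plus strand: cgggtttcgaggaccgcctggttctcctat
Rpl22l1, chr3:28805498-28805527, plus strand: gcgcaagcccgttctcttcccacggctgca
Rpl39, chrX:37085203-37085232, minus strand: gctccgcctctagcgacttcttctaatcgc
Rps2, chr17:24720053-24720082, plus strand: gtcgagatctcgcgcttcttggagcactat
The first 4 starts hold a word and the last 4 do not. This even split is one of the lines chosen. The starts of Rps27l, Rpl41, Rplp2, Rpl22, Rps15a, Rpl14, Rpl13 and Rpl10a, also called below, hold no word in these stretches and are not shown. Promoter entries were found for 60 of the 84 members, with 71 windows because some genes have several starts. Within 30 bases on each side of the start, on the gene's own strand, 33.8% of the members' windows held at least 1 word, against 7.47% of 32851 windows of 27025 genes. In the whole 300-base windows, with both strands read, the shares were 80.3% and 56.9%. The 30-base stretches were 56.7% pyrimidine in the median member window and 50% in the median of all windows. A word is a description of the letters, and its absence says only that these letters are not in the window.

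Libraries held 16047175 to 17792481 counts each, and no library repeated another of its group (chi-square per degree of freedom of 6.93 or more for each pair). The lung label was checked with Sftpc at 19802 to 30186 FPKM and Scgb1a1 at 34593 to 94851 FPKM in the 9 libraries, surfactant and club cell transcripts. Silica 1 held the lowest Scgb1a1 value, and the other 8 libraries were at 71946 FPKM or above. Silica 1 and Silica + ATL-III 3 also stood apart in the ribosomal protein genes. Of the 84 members, 66 were highest within the Silica group in Silica 1, and 73 were highest within the Silica + ATL-III group in Silica + ATL-III 3.

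The members took 2.97% ± 0.0728 of all counts in Control (SD, n = 3), 3.54% ± 0.352 in Silica and 3.21% ± 0.48 in Silica + ATL-III (SD, n = 3 each). By library the shares were 2.94, 3.05 and 2.92% in Control, 3.94, 3.33 and 3.34% in Silica, and 3.04, 2.84 and 3.75% in Silica + ATL-III. All 3 Silica libraries lay above all 3 Control libraries, and the third group spread from below Control to within the Silica range. Of summed FPKM the members took 4.36% ± 0.107 in Control, 4.82% ± 0.596 in Silica and 4.10% ± 0.441 in Silica + ATL-III (SD, n = 3 each). On that scale the third group is the lowest, so the order of the groups depends on the scale.

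**Figure D1:**
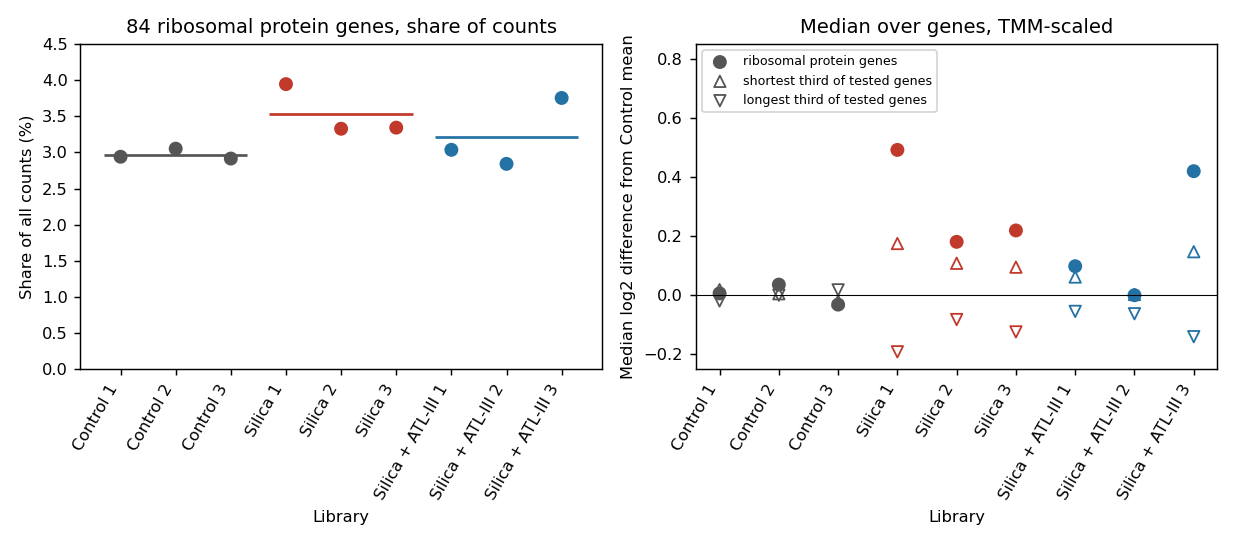
The left panel plots the share of all counts (%) taken by the 84 genes in each library, with lines at group means, and the right panel plots the median log2 difference from the Control mean over the 84 genes (filled points) and over the shortest and the longest tested genes by exonic length (open triangles). Silica 1 (3.94%) and Silica + ATL-III 3 (3.75%) are the highest libraries, and the triangles spread widest there too.

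After scaling of the counts by TMM, edgeR's trimmed mean of M values, the median member stood 0.49 above its Control mean on the log2 scale in Silica 1, 0.18 in Silica 2 and 0.22 in Silica 3. The corresponding values were 0.10, 0.00035 and 0.42 in Silica + ATL-III 1, 2 and 3. Over the tested genes with the shortest exons in sum (the lowest of 3 equal classes of length) the median was 0.18 in Silica 1 and 0.15 in Silica + ATL-III 3. Over the longest class it was -0.19 and -0.14 in the same libraries. The part of this length-linked spread in the results was not tested.

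**Figure D2:**
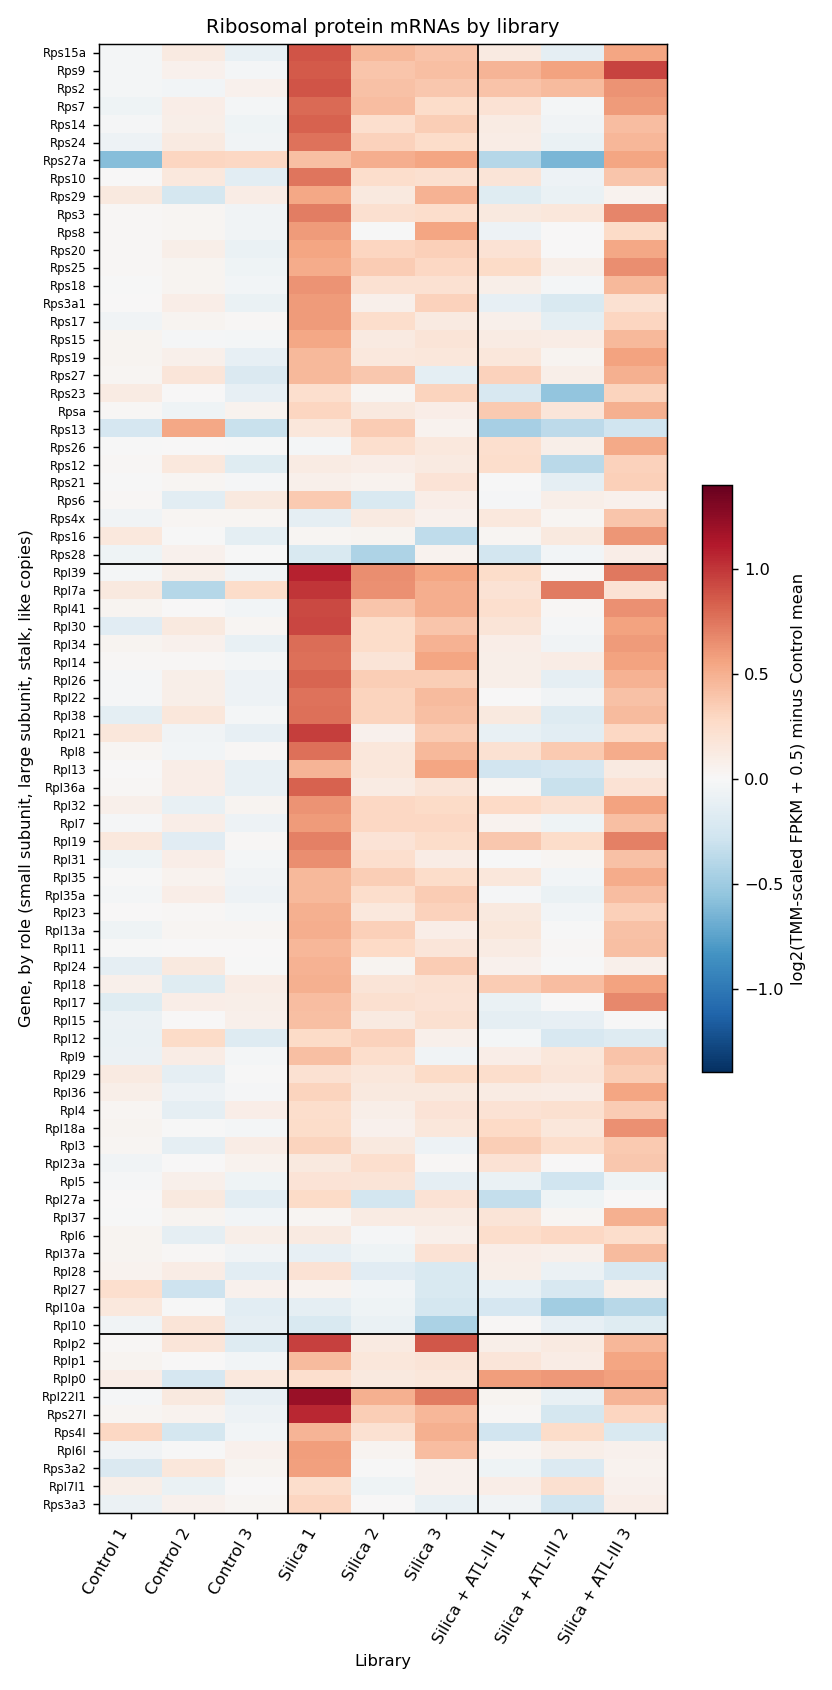
Each row is a ribosomal protein gene, each column a library, and colour gives log2(TMM-scaled FPKM + 0.5) minus the mean of the 3 Control libraries. Rows are ordered within each role by the change in Silica, and Silica 1 and Silica + ATL-III 3 are the columns with the most red.

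The first comparison, Silica over Control, asks how lung transcripts stand 28 days after silica. Of 84 ribosomal protein genes 13 were called higher, 0 were called lower and the other 71 did not pass (edgeR quasi-likelihood test, Benjamini-Hochberg adjusted p under 0.05 over 15459 genes). Among all tested genes 9.11% were called higher and 7.81% lower. The median log2 fold change of the members was 0.32, a 1.25-fold difference, against -0.013 over all tested genes, and 78 members had a positive value. DESeq2 called 29 members higher and 0 lower, and among all tested genes it called 1870 higher and 1501 lower. No member differed 2-fold or more in any comparison. Of the 15459 tested genes 925 did so in Silica over Control, 1329 in Silica + ATL-III over Silica and 1290 in Silica + ATL-III over Control. At an unadjusted p under 0.05, 43 members passed, against 34.8% of all tested genes. The FPKM of the 3 Silica libraries all exceeded the 3 Control libraries in 35 members, where 14.4% of all tested genes did so. The reverse held for 1 member, Rpl10, named after its values were seen, where 28.9% of all tested genes did so.

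Both copies that were called higher have a parent gene in the ribosome. Rpl22l1, a copy of the large-subunit gene Rpl22, lies at chr3:28805436-28807424 on GRCm38. It stood at 72.5, 81.9 and 68.1 FPKM in Control, at 155, 100.1 and 115 FPKM in Silica, and at 70.1, 63.7 and 94.2 FPKM in Silica + ATL-III. Every Silica library was above every library of both other groups. The log2 fold change of Silica over Control was 0.84 ± 0.19 (SE, adjusted p = 0.0147), the smallest p among the members. Rpl22, whose protein is known to restrain the expression of Rpl22l1, stood at 143, 155 and 139 FPKM in Control and 223, 173 and 186 FPKM in Silica. It was 0.52 ± 0.15 higher (log2, SE, adjusted p = 0.0391), and the difference between both genes was not tested.

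Rps27l, a copy of Rps27 known as a target of p53, lies at chr9:66946086-66949516. It stood at 165, 169.8 and 155 FPKM in Control, 307, 200.1 and 211 FPKM in Silica, and 152, 128 and 183 FPKM in Silica + ATL-III. Here too every Silica library was above all others, and Silica over Control was 0.66 ± 0.18 (log2, SE, adjusted p = 0.0321). Rpl22l1 and Rps27l were the 2 members with this pattern of Silica libraries above Control and above Silica + ATL-III libraries without overlap. The share of all tested genes with both was not counted. Taken singly, these patterns held in 14.4% and 19.6% of all tested genes.

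In the large subunit 6 of 43 genes were called higher and 0 lower, with a median log2 fold change of 0.31. Rpl39, a small protein that lines the exit tunnel for the new peptide, stood at 214, 235 and 212 FPKM in Control and 419, 333 and 304 FPKM in Silica. Silica was 0.78 ± 0.18 higher (log2, SE, adjusted p = 0.0178), with no overlap. Rpl7a, another large-subunit protein, stood at 31.1, 21.7 and 34.3 FPKM in Control and 51.8, 43.0 and 38.2 FPKM in Silica. Its change was 0.71 ± 0.20 (log2, SE, adjusted p = 0.0324). The others called were Rpl22 (above), Rpl41 at 0.63, Rpl14 at 0.52 and Rpl8 at 0.48 on the log2 scale, each without overlap between the groups' FPKM.

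In the small subunit 4 of 31 genes were called higher and 0 lower, with a median of 0.34. Rps2, which lies at the channel where mRNA enters, stood at 183, 186 and 197 FPKM in Control and 314, 240.3 and 229.7 FPKM in Silica. Rps9, a core protein of the small subunit, stood at 164, 177 and 165 FPKM in Control and 277, 213 and 212 FPKM in Silica. Both sets of libraries were apart, with log2 fold changes of 0.57 ± 0.14 for Rps2 (SE, adjusted p = 0.0211) and 0.58 ± 0.16 for Rps9 (SE, adjusted p = 0.0314). Rps15a at 0.59 on the log2 scale was also called.

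The stalk recruits the elongation factors to the large subunit, with Rplp0 as its base and Rplp1 and Rplp2 as its arms. Rplp2 stood at 66.9, 75.3 and 58.6 FPKM in Control and 117, 69.7 and 115 FPKM in Silica. It was called higher (log2 0.69 ± 0.20, SE, adjusted p = 0.0347), although Silica 2 lay within the Control range. Rplp1, at 1227 to 1283 FPKM in Control and 1346 to 1546 FPKM in Silica, was not called, and neither was Rplp0.

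These calls rested on few libraries. In edgeR 0 members were called without Silica 1 (19 at an unadjusted p under 0.05) and 0 without Control 1 (27 unadjusted). Without Control 2 the test called 2, without Control 3 it called 1 and without Silica 3 it called 6. It called 26 without Silica 2 and 27 without Silica + ATL-III 3. The median stayed positive in all 9 of these fits, at 0.22 to 0.38. Without both libraries with the highest member levels in their groups, Silica 1 and Silica + ATL-III 3, 9 members were called higher and the median was 0.22. With libraries scaled by the sum of count over length, as for TPM, 2 members were called higher and 1 lower. Of all tested genes 726 were then called higher and 3451 lower. That scaling moved the median of all tested genes from -0.013 to -0.20 and the members' median to 0.14, and the distance between both medians was 0.34 under either scaling.

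**Figure D3:**
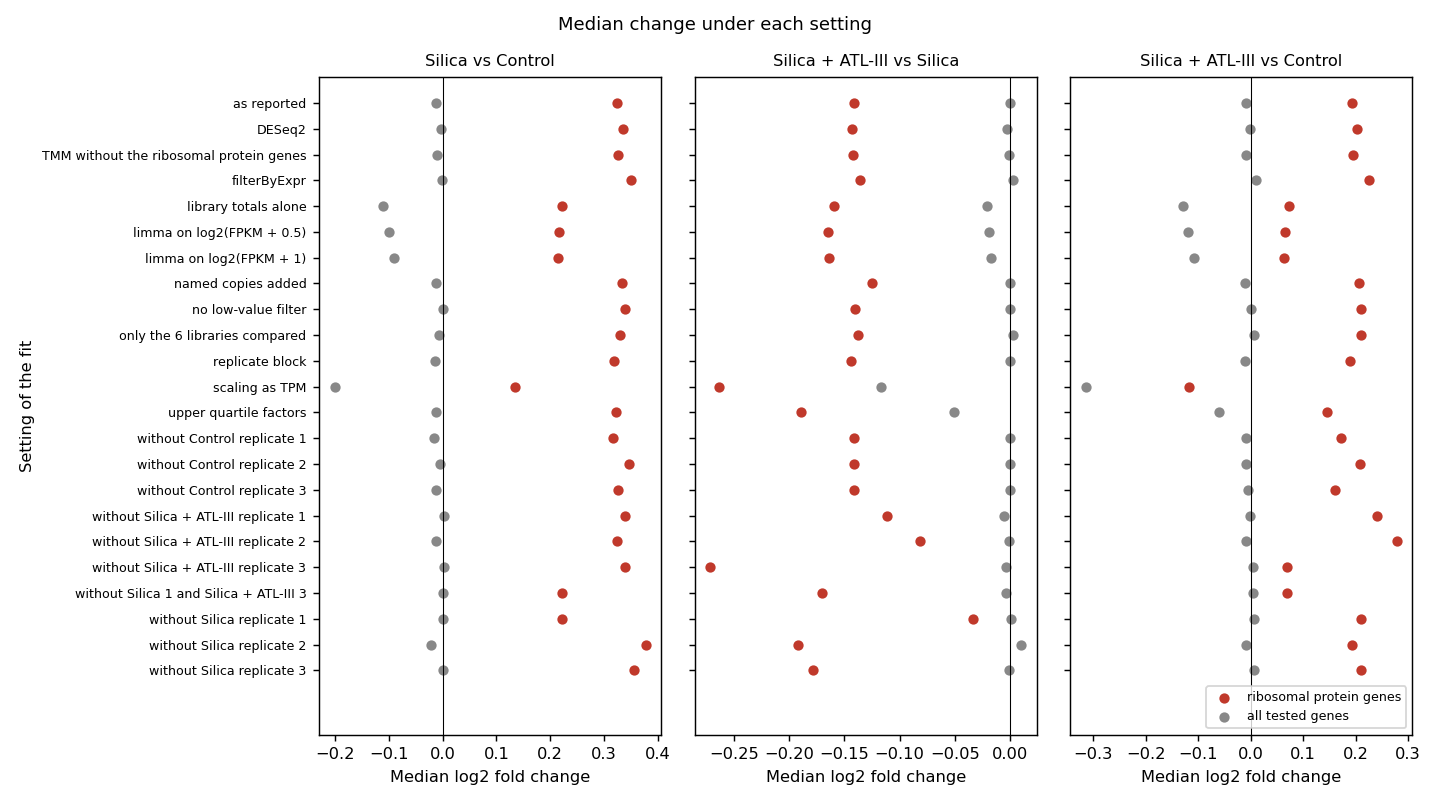
Median log2 fold change over the ribosomal protein genes (red) and over all tested genes (grey) for each comparison (panels) and each setting of the fit (rows, with the reported fit on top). Red points lie right of grey ones in all rows of the outer panels and left of them in all rows of the middle panel, while scaling as TPM moves both.

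The comparison of Silica + ATL-III with Silica asks what the injected mice show beyond silica. Of 84 members 4 were called lower and 1 higher, where 10% of all tested genes were called lower and 11.2% higher. The median log2 fold change was -0.14, against -0.00034 over all tested genes, and 60 members had a negative value. At an unadjusted p under 0.05, 19 members passed, against 35.4% of all tested genes. All Silica + ATL-III libraries lay below all Silica libraries by FPKM in 12 members (19.6% of all tested genes) and above them in 2 (15.5%). This comparison shares its Silica libraries with the one above, so a gene high in Silica can appear in both through the same libraries.

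Both copies that were higher in Silica were lower here. Rpl22l1 fell by 0.68 ± 0.19 on the log2 scale (SE, adjusted p = 0.0243) and Rps27l fell by 0.62 ± 0.18 (SE, adjusted p = 0.0316), with the FPKM values given above. Against Control neither was called in Silica + ATL-III (Rpl22l1 0.16 ± 0.19, adjusted p = 0.62, Rps27l 0.04 ± 0.18, adjusted p = 0.919, log2 and SE). Rpl13, a large-subunit protein, stood at 13.8, 11.8 and 15.2 FPKM in Silica and 8.26, 8.52 and 10.9 FPKM in Silica + ATL-III, a log2 change of -0.54 ± 0.14 (SE, adjusted p = 0.0197). Rpl15, also of the large subunit, stood at 33.3, 28.8 and 30.3 FPKM in Silica and 23.2, 23.4 and 25.0 FPKM in Silica + ATL-III, a change of -0.35 ± 0.10 (SE, adjusted p = 0.0323). In neither gene did the FPKM of the groups overlap.

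Rplp0, the stalk base and a common reference transcript in quantitative PCR, went the other way. It stood at 330.4, 267 and 345 FPKM in Control, 332, 329 and 327 FPKM in Silica, and 434, 441 and 423 FPKM in Silica + ATL-III. The Silica + ATL-III libraries were above all 6 others, and Silica lay inside the Control range. The log2 fold change over Silica was 0.41 ± 0.12 (SE, adjusted p = 0.03).

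Leaving out 1 library changed the count in both directions, from 0 without Silica + ATL-III 1 (edgeR, 8 at an unadjusted p under 0.05) to 16 without Silica + ATL-III 3. It was 1 without Silica 1 (1 higher, 0 lower) and 1 without Silica 3 or Silica + ATL-III 2 (0 higher, 1 lower in each). Without Silica 2 it was 11 (0 higher, 11 lower). Genes of any kind called in these fits numbered 2356, 3669, 2103, 2044, 1925 and 3877, in that order, and 3279 in the reported fit. None of the 5 member calls held in all 9 fits with a library left out. Without Silica 1 the median was -0.033. Without both Silica 1 and Silica + ATL-III 3, 8 members were lower and 1 higher, and scaling as TPM gave 21 lower and 0 higher. Of all tested genes that scaling called 2732 lower and 1161 higher, and it moved their median to -0.12. The members' median stood 0.15 below that of all tested genes under that scaling and 0.14 below it in the reported fit.

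In the comparison of Silica + ATL-III with Control 4 members were called higher and 1 lower, with 9.14% and 6.71% of all tested genes called. The median log2 fold change was 0.19, against -0.0099 over all tested genes, and 65 members were positive. At an unadjusted p under 0.05, 17 members passed (30.2% of all tested genes). By FPKM 12 members were above all Control libraries (12% of all tested genes) and 4 below (30.6%). Both comparisons with Control use the same Control libraries.

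Rplp0 had the smallest p among the members, with a log2 fold change of 0.58 ± 0.12 (SE, adjusted p = 0.00657), and it was the only one of the 23 member calls in the 3 comparisons to hold in each of the 9 fits with a library left out. Scaling as TPM ended the call (0.28, adjusted p = 0.0891). Rps9 stood at 217, 232 and 298 FPKM here, above its Control values, with a change of 0.68 ± 0.16 (SE, adjusted p = 0.0124) that lost its call without Control 1 or Control 3. Rps2, at 230.3, 237 and 266 FPKM, was 0.49 ± 0.14 higher (SE, adjusted p = 0.0353). Rps9 and Rps2 were the 2 members called higher in both groups that received silica. The share of all tested genes called higher in both was not counted.

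Rpl18, a large-subunit protein, stood at 71.8, 61.6 and 74.0 FPKM in Control and 81.1, 86.1 and 92.9 FPKM in Silica + ATL-III, 0.45 ± 0.12 higher (log2, SE, adjusted p = 0.0302). Rpl10a, which forms the mobile arm of the large subunit near the exit site for tRNA, stood at 19.2, 17.6 and 15.7 FPKM in Control, 14.3, 16.1 and 13.8 FPKM in Silica and 13.6, 11.4 and 12.0 FPKM in Silica + ATL-III. It was the member called lower, by -0.38 ± 0.11 (log2, SE, adjusted p = 0.0417). Its Silica + ATL-III libraries lay below all others.

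The count was 1 without Control 1, 2 without Control 2, Control 3 or Silica + ATL-III 3, 3 without Silica + ATL-III 2, and 11 without Silica 1. Genes of any kind called in these fits numbered 1590, 1711, 1474, 2320, 1859 and 2864, in that order, and 2451 in the reported fit. Scaling as TPM gave 0 higher and 10 lower and a members' median of -0.12, while it moved the median of all tested genes to -0.31. Of all tested genes that scaling called 779 higher and 5339 lower. The members stood 0.20 above all tested genes under either scaling. Without both Silica 1 and Silica + ATL-III 3 the median was 0.068.

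**Figure D4:**
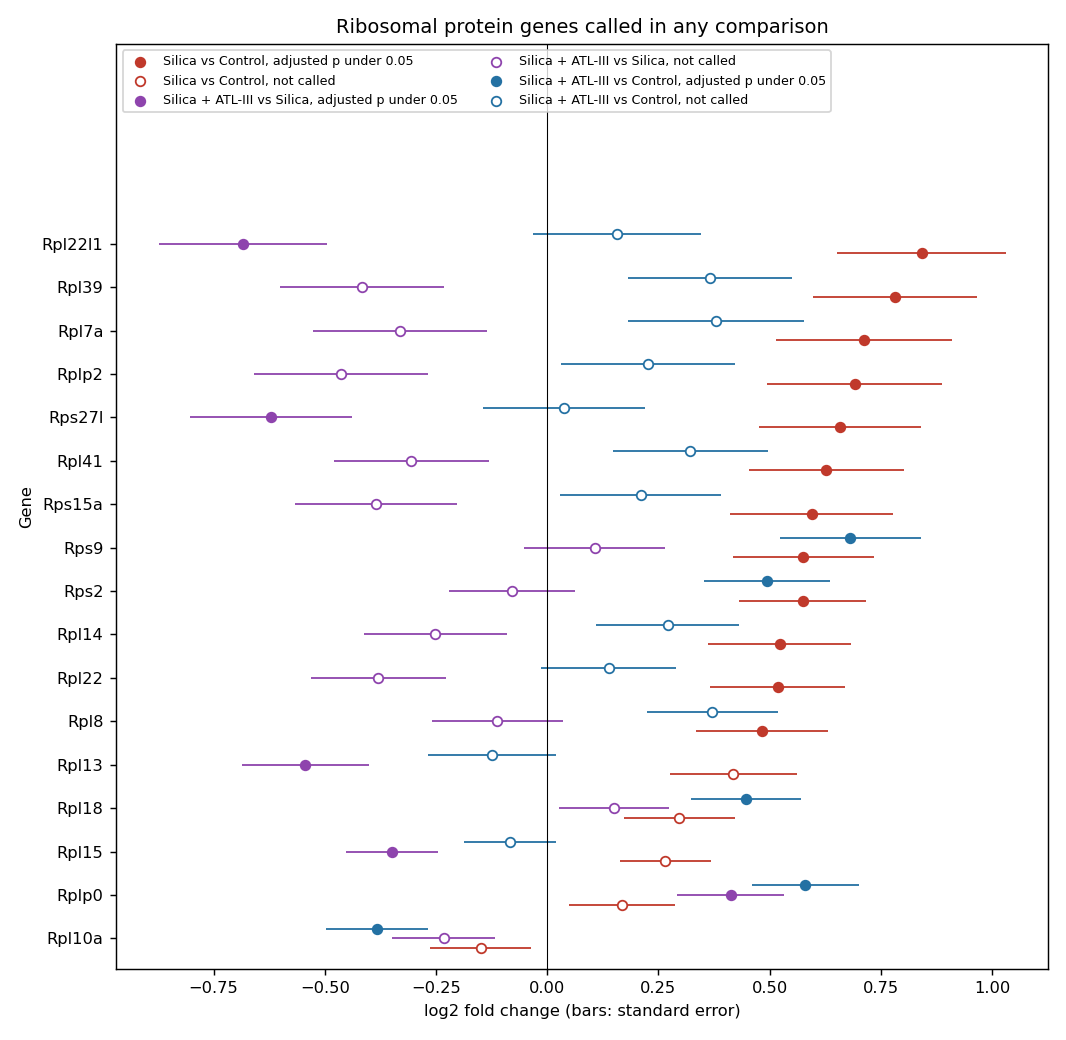
log2 fold change (points) with standard error (bars) in the 3 comparisons for genes called in any of them, with filled points for adjusted p under 0.05. Rplp0, Rps9, Rps2 and Rpl18 have filled blue points on the right, and Rpl22l1 and Rps27l have filled points on both sides.

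Members called in no comparison include several with a known second role. Rpsa, also named for binding laminin, stood at 218, 209 and 224 FPKM in Control, 240.4, 229.7 and 217 FPKM in Silica, and 258, 225 and 280.0 FPKM in Silica + ATL-III. Rps6, the substrate of the S6 kinases downstream of mTOR, ranged from 12.1 to 17.2 FPKM with overlap between all groups. Rps27a, made as a fusion with ubiquitin, ranged from 5.18 to 12.7 FPKM and varied as much within Control and Silica + ATL-III as between groups.

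The other 5 copies overlapped with Control by FPKM in both groups that received silica, and none was called. Rpl7l1 stood at 16.7 to 19.7 FPKM across the 9 libraries, and its parent Rpl7 stood at 548 to 618 FPKM in Control and 662 to 786 FPKM in Silica. Rps4l (8.79 to 15.6 FPKM) and Rpl6l (39.7 to 57.4 FPKM) had all Silica libraries at or above the Silica + ATL-III libraries, while their parents Rps4x (636 to 920.1 FPKM) and Rpl6 (98.7 to 121 FPKM) did not. Rps3a2 stood at 42.7, 30.3 and 31.1 FPKM in Silica and lower, at 27.9, 25.6 and 29.9 FPKM, in Silica + ATL-III. Rps3a3 (34.3 to 50.0 FPKM) and Rps3a1, for which both are named (1258 to 2135 FPKM), overlapped between these groups. Rps4l, Rpl6l, Rps3a2 and Rps3a3 have no coding transcript in the GENCODE M21 annotation, so the sequence they share with other genes was not measured. Whether their counts include reads of their parents was not tested. Rpl3l and Rpl39l, 2 of the 5 symbols below the filter, were low: Rpl3l did not exceed 1.14 FPKM, and Rpl39l stood at 2.01, 0.79 and 2.1 FPKM in Silica and at 0.29 to 0.75 FPKM in the other 6 libraries. Rpl32l had 21 counts over all libraries, and Rpl10l and Rps12l1 had 0.

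The deposited levels of single members are uncertain for a further reason, which is the large number of near-identical copies. The table holds 323 rows named as pseudogenes or retrocopies of members. Of these, 93 passed the filter, from 43 parents, and several stood above most members, such as Rpl21-ps15 at 856 FPKM, Rpl17-ps10 at 782 FPKM and Rps7-ps3 at 721 FPKM in the mean. Rps27 and its retrocopy Rps27rt show the extent of the likeness. Rps27 (chr3:90212522-90213651, GRCm38) averaged 8.75 FPKM and Rps27rt (chr9:114982366-114982739) averaged 290.4 FPKM, yet their coding sequences in GENCODE M21 had 0 mismatches over 252 bases. The first 90 bases, the same in both, are shown to let the likeness be seen.
Rps27 and Rps27rt: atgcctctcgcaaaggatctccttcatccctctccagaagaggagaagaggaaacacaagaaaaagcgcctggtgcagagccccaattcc
A read from this stretch fits either gene, and the sources used here do not say how the authors' counting placed such reads.

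For 80 members with a coding transcript in GENCODE M21, the share of 50-base coding stretches also present in another annotated gene had a median of 83.6% and ran from 0% to 100%. For 100-base stretches the median was 70%. Of 9 members under 10 FPKM, 7 shared at least 90%, and the least shared among the 9 was 79.6%. Across these 80 genes Spearman's rho between the share and the mean FPKM was -0.46 for 50-base and -0.63 for 100-base stretches. Both are given as a description, since the genes share libraries and copies. The lowest members in the table, Rps13 at 3.24, Rpl28 at 3.96 and Rpl12 at 6.06 FPKM in the mean, shared 100%, 88.5% and 100% of 50-base stretches. The highest, Rps3a1 at 1619, Rplp1 at 1365 and Rps15 at 1168 FPKM in the mean, shared 88.3%, 60.4% and 43.3%. They lie far above the lowest members, and this order cannot be read as an order of mRNA levels. The part of shared sequence in the order was not tested. FPKM also divides by the summed length of all exons of a gene, a median of 1754.5 bases, where the median transcript of a member has 703.5 bases.

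**Figure D5:**
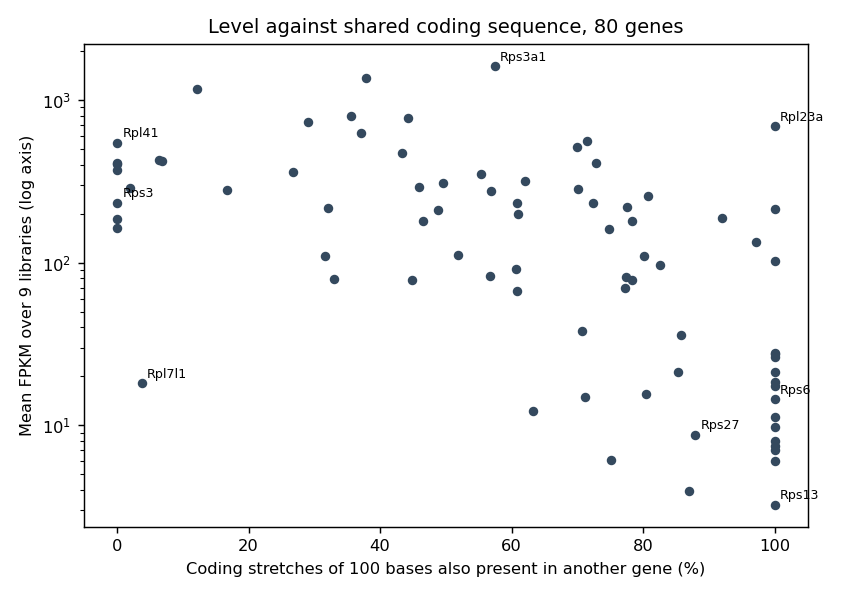
Mean FPKM over the 9 libraries (log axis) against the share (%) of 100-base coding stretches also present in another annotated gene, 1 point for each of 80 genes. Points at 100% sit mostly under 30 FPKM, with Rpl23a and a few others higher.

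Of the 13 genes called higher in Silica 1, Rpl7a, shared at least 90% of its 50-base stretches, where 32 of the 80 members did. Rps27l shared 29.4%, Rps9 41%, Rpl22l1 82.2% and Rpl39 86.5%. Rplp0 shared 60.3%. Rpl13 and Rpl15, lower in Silica + ATL-III than in Silica, shared 100% of their coding stretches. Exons outside the coding sequence were not compared. The 93 tested copies had medians of 0.36, -0.15 and 0.23 on the log2 scale in the 3 comparisons in the order of the text, close to the members' 0.32, -0.14 and 0.19. Adding the counts of named copies to their parents gave 15, 5 and 4 called members.

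Other genes of the translation machinery were read from the same fit. The counts of each list stand against the shares of all tested genes called higher and lower, which were 9.11% and 7.81% in Silica over Control, 11.2% and 10% in Silica + ATL-III over Silica, and 9.14% and 6.71% in Silica + ATL-III over Control. Mitochondrial ribosomal proteins, which build a separate ribosome inside mitochondria, had 16 of 77 tested genes (20.8%) called higher and 0 lower in Silica over Control, with a median of 0.33. In Silica + ATL-III over Silica, 0 were called higher and 5 lower (6.49%, all tested genes 10%), with a median of -0.21, and over Control 1 was higher and 0 lower, with a median of 0.10. Mrpl12 stood at 34.5 ± 7.6 FPKM in Silica and 20.0 ± 3.92 FPKM in Silica + ATL-III (SD, n = 3 each), a log2 change of -0.77 ± 0.18 (SE, edgeR adjusted p = 0.0106).

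Of 36 initiation factors 7 (19.4%, all tested genes 9.11%) were called higher and 0 lower in Silica over Control, with a median of 0.22. Eif5a, which helps ribosomes past stalling sequences, stood at 72.1 ± 4.26 FPKM in Control and 108 ± 27.1 FPKM in Silica (SD, n = 3 each), 0.69 ± 0.16 higher (log2, SE, edgeR adjusted p = 0.0181). In Silica + ATL-III over Silica 2 initiation factors were lower, Eif4g2 and Eif2s1, and over Control 1 was higher, Eif2b2, both counts below the shares of all tested genes. Of 46 ribosome assembly factors 5 (10.9%, near the 9.11% of all tested genes) were higher and 0 lower in Silica over Control, among them Mrto4 (0.85 ± 0.17, log2 and SE, adjusted p = 0.00904) and Npm1 (0.48 ± 0.11, adjusted p = 0.0162). In Silica + ATL-III over Silica 7 assembly factors (15.2%, all tested genes 10%) were lower and 0 higher, with the smallest p for Nop58 (-0.42 ± 0.092, adjusted p = 0.008) and a larger change in Naf1 (-0.75 ± 0.18, adjusted p = 0.0132). Against Control 1 was lower, Nat10, a count below the share of all tested genes.

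A list of 13 genes held elongation and release factors, with a few genes, Eef1e1 and Pabpc1 among them, that are not such factors themselves. Of these 13, 1, Eef1b2, was higher in Silica over Control and 1, Eef1e1, was lower in Silica + ATL-III over Silica. In Silica + ATL-III over Control 3 were higher. The first pair of counts, at 7.69% each, was below the shares of all tested genes, and the last, at 23.1%, stood beside 9.14%. These 3 were Eef2, which moves the ribosome along the mRNA, Eef1a1, which brings the charged tRNA, and Pabpc1, which binds the poly(A) tail. Eef2 stood at 147, 129 and 151 FPKM in Control, 238, 156 and 169 FPKM in Silica, and 194, 252 and 196 FPKM in Silica + ATL-III. It was 0.71 ± 0.18 higher in Silica + ATL-III than in Control (log2, SE, edgeR adjusted p = 0.0204), and its Silica libraries were also above Control without a call (adjusted p = 0.0729). Eef1a1 was 0.45 ± 0.14 higher (adjusted p = 0.046) and Pabpc1 0.48 ± 0.11 higher (adjusted p = 0.0109).

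The list of RNA polymerase I subunits and regulators of ribosome genes had 22 tested genes. In Silica over Control 3 were higher (13.6%) and 2 lower (9.09%), near the shares of all tested genes. In Silica + ATL-III over Silica 5 were higher (22.7%, all tested genes 11.2%) and 0 lower, and over Control 3 were higher (13.6%, all tested genes 9.14%) and 0 lower. Eif4ebp1, a repressor of cap-dependent initiation that mTOR switches off, stood at 5.29 ± 0.353 FPKM in Control, 5.85 ± 1.15 FPKM in Silica and 10.7 ± 0.486 FPKM in Silica + ATL-III (SD, n = 3 each). It was 1.14 ± 0.16 higher than Control (log2, SE, edgeR adjusted p = 0.000558) and 0.89 ± 0.16 higher than Silica (adjusted p = 0.00251), and both calls held in all 9 fits with a library left out. Rps6kb2, an S6 kinase, stood at 7.03 ± 0.282 FPKM in Control, 4.38 ± 0.329 FPKM in Silica and 5.85 ± 0.582 FPKM in Silica + ATL-III (SD, n = 3 each). Its log2 changes were -0.59 ± 0.11 in Silica over Control (adjusted p = 0.00624) and 0.44 ± 0.11 in Silica + ATL-III over Silica (adjusted p = 0.0145). Mtor at 1.92 to 2.81 FPKM and Larp1 at 8.31 to 11.2 FPKM were called in no comparison. Myc, which drives transcription of ribosome genes, stood at 2.2, 2.84 and 2.36 FPKM in Control and 4.84, 2.69 and 3.6 FPKM in Silica, and was not called (adjusted p = 0.0592).

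Of 22 aminoacyl-tRNA synthetases 1, 1 and 2 were called higher and 0 lower in the 3 comparisons, at or below the 9.11, 11.2 and 9.14% of all tested genes called higher. Of 15 chaperones of new chains 1 was higher, 1 lower and 1 higher (6.67% each), also below the shares of all tested genes. Wars, which charges tryptophan tRNA, was 0.59 ± 0.13 higher in Silica + ATL-III than in Silica (log2, SE, edgeR adjusted p = 0.0073). Among ribosomal protein genes whose symbols the rule does not reach, Rpl36al was higher in Silica over Control (0.43 ± 0.13, adjusted p = 0.0447). Rack1, a scaffold on the small subunit, stood at 102 to 108 FPKM in Control, 115 to 139 FPKM in Silica and 113 to 139 FPKM in Silica + ATL-III without a call.

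Some of these calls also rested on single libraries. Eif5a lost its call without Control 2 or Control 3, Npm1 without Control 1 or Control 3, Pabpc1 without Control 2, Naf1 without Silica 1 or Silica + ATL-III 2, and Rps6kb2 in Silica + ATL-III over Silica without Silica 3. Eef2 lost it without any 1 of the Control libraries or without Silica + ATL-III 2. Eef1a1 kept its call in 2 of 9 fits with a library left out and Rpl36al in 3 of 9. The calls given for Mrto4, Nop58, Nat10, Wars, Mrpl12 and Eif4ebp1, and for Rps6kb2 in Silica over Control, held in all 9.

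Markers of other cell types were counted in the same comparisons. All tested genes were called higher and lower in 9.11% and 7.81% in Silica over Control. The shares were 11.2% and 10% in Silica + ATL-III over Silica, and 9.14% and 6.71% in Silica + ATL-III over Control. Of 12 tested macrophage markers 9 were higher in Silica over Control, 6 were lower in Silica + ATL-III over Silica and 8 were higher over Control. Their summed level was 665 to 825 FPKM in Control, 2124 to 6051 FPKM in Silica (highest in Silica 1) and 1629.7 to 2638 FPKM in Silica + ATL-III (highest in Silica + ATL-III 3). The order differed for the median marker, on the log2 scale against the Control mean after TMM scaling. It stood at 1.996, 1.22 and 1.979 in Silica 1, 2 and 3. In Silica + ATL-III 1, 2 and 3 it stood at 1.41, 1.06 and 1.29. Of 13 tested neutrophil markers 3 were higher in Silica over Control and 13 in Silica + ATL-III over either group, with sums of 609 to 3919.9 FPKM in Control, 1075 to 4834 FPKM in Silica and 30256 to 45718 FPKM in Silica + ATL-III. Of 9 tested B cell markers 9 were lower in Silica + ATL-III over either group, with sums of 32.5 to 73.6, 41.3 to 71.9 and 8.15 to 21.5 FPKM in the 3 groups. Of 15 cell cycle genes 5 were higher in Silica over Control and 4 lower in Silica + ATL-III over Silica, with sums of 62.3 to 62.8, 71.9 to 90.2 and 56.8 to 62.4 FPKM. Of 12 lung epithelial markers 4 (33.3%) were higher in Silica over Control. In Silica + ATL-III 1 was lower than in Silica and 1 higher than in Control (8.33% each), near the shares of all tested genes. The epithelial sums were 105234 to 122216, 84718 to 129912 (lowest in Silica 1) and 126299 to 132755 FPKM. Scgb1a1, lowest in Silica 1, weighs heavily in these sums. The median epithelial marker was highest of all libraries in Silica 1, at 0.50.

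Markers of structural and neighbouring tissue were also counted, and the same shares of all tested genes stand beside them. Of 10 tested heart and skeletal muscle markers 7 were lower in Silica over Control, 1 (10%, all tested genes 10%) in Silica + ATL-III over Silica and 9 in Silica + ATL-III over Control. Their sums were 178 to 204, 88.3 to 118 and 55.7 to 104 FPKM in the 3 groups. Of 5 tested adipose markers 4 were lower in Silica over Control, 2 were higher in Silica + ATL-III over Silica and 2 were lower over Control, with sums of 38.4 to 169, 30.4 to 43.3 and 29.5 to 43.9 FPKM. Of 10 fibroblast markers 2 were lower in Silica over Control, and 6 were lower and 1 higher in Silica + ATL-III over either group, with sums of 386 to 422, 326 to 396 and 198 to 266 FPKM. Of 10 endothelial markers 3 were lower in Silica over Control, 5 were higher and 1 lower in Silica + ATL-III over Silica, and 2 were higher and 4 lower over Control. Their sums were 326 to 365, 202 to 268 and 287 to 365 FPKM. Of 9 T and NK cell markers 1 was higher in Silica over Control and 1 lower in Silica + ATL-III over Silica. Each count (11.1%) was near the share of all tested genes. The T and NK sums were 45.9 to 64.6, 74.97 to 90.7 and 34.5 to 91.5 FPKM. Of 6 red blood cell markers 0 were called, with sums of 5044 to 6727, 4997 to 8542 and 1134 to 5754 FPKM. Of 5 plasma cell markers 1 was lower in Silica over Control, 1 was higher and 1 lower in Silica + ATL-III over Silica, and 1 was higher over Control, with sums of 120.3 to 192, 148 to 287 and 131 to 141 FPKM. No gene of these marker lists was listed at 0 in all 3 libraries of a group. The part of all these cell types in the ribosomal protein results was not tested.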

How the data were processed

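Lung poly(A) RNA of 3 groups was sequenced. The submitters' processing notes list HISAT2 2.0.1, HTSeq 0.6.1, cutadapt 1.9.1 and mm10 without roles. The sources used here do not state the use of strand in counting or the handling of reads that fit several genes, so a gene's antisense partner cannot be separated from it. The deposited table gives whole-number counts per gene, an exonic length, and FPKM by the authors, per the file headers. FPKM recomputed from counts, length and library totals gave 100% of the deposited values within 0.006.

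The counts were tested with edgeR 4.0.16 in R 4.3.3 (quasi-likelihood test, TMM, all 9 libraries in 1 fit of 3 group means, genes at 1 FPKM or more in at least 3 libraries). Calls are at a Benjamini-Hochberg adjusted p under 0.05. Alternatives used DESeq2 1.42.0, limma 3.58.1 on log2(FPKM + 0.5) computed from the deposited FPKM, other scalings and filters, and 1 library left out. Scripts were tested on simulated data. Precision is limited by 3 libraries per group.

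Members, gene lists and naming rules were chosen with earlier results of these data known. Named members are those with a second role, copies and their parents, the stalk, the called members with the smallest p (up to 6 per direction) and the 3 highest and 3 lowest. Of each list up to 2 called genes per direction were eligible, with Myc, Mtor, Larp1 and a few translation genes. Gene positions and coding sequences are from GENCODE M21 and starts from RefSeq, both GRCm38. Positions in the deposited table were not used. A few genes are counted but not reported here by name.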

Additional observations from a re-analysis of the deposited data

How the results depend on the processing

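Called members numbered 13 (Silica over Control), 5 (Silica + ATL-III over Silica) and 5 (Silica + ATL-III over Control). For Silica over Control the count was 29 with DESeq2, 8 with library totals alone, 3 with limma at either pseudocount, 33 with no filter on low values, 23 with only the 6 libraries compared, 5 with the replicate block and 3 with scaling as TPM. Genes of any kind called in these fits numbered 3371, 3015, 2440 or 2458 (limma), 3780, 2866, 2120 and 4177, in that order. For Silica + ATL-III over Silica the count of members was 12 with no filter, 3 with only the 6 libraries compared and 21 with scaling as TPM. Genes of any kind called there numbered 4314, 2309 and 3893. For Silica + ATL-III over Control the count of members was 12 with DESeq2, 3 with library totals alone, 3 with limma at either pseudocount, 8 with only the 6 libraries compared, 3 with the replicate block and 10 with scaling as TPM. Genes of any kind called there numbered 2889, 3086, 2718 or 2736 (limma), 2774, 2109 and 6118, in that order. Leaving out both Silica 1 and Silica + ATL-III 3, chosen after seeing the data, gave 9, 9 and 4, and adding named copies, also chosen after seeing the data, gave 15, 5 and 4. Leaving out 1 library gave 0 to 27, 0 to 16 and 1 to 11 called members, and 862 to 3944, 1925 to 3877 and 1474 to 2864 called genes of all kinds (2615, 3279 and 2451 in the reported fit). Scaling as TPM called 4177 genes in Silica over Control, 726 higher and 3451 lower. It called 6118 in Silica + ATL-III over Control, 779 higher and 5339 lower. That scaling moved the members' median in Silica over Control to 0.14 and reversed that in Silica + ATL-III over Control to -0.12. Under the other alternatives the members' median kept its sign, and relative to all tested genes it was 0.22 to 0.40, -0.27 to -0.035 and 0.064 to 0.29 over all settings. The cause of these differences was not tested.

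Sample numbers did not pair the libraries: 2 of 9 correlations of same-numbered deviations from the group mean were above 0.1 with a range of -0.17 to 0.13, and 2 of 9 libraries correlated best with their own number. Fitting the replicate block left 4 members called in Silica + ATL-III over Silica. None of the 23 member calls reversed under any setting. Of the 36 calls of other translation genes that the naming rule reaches, 11 held in all 9 fits with a library left out and 0 reversed.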
